A study of Macaca fascicularis and Macaca mulatta and Papio anubis with 20 samples.

Results

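Spots rich in sensory neuron transcripts were compared with spots rich in myelin transcripts in the 2 dorsal root ganglion sections labelled Papio anubis. The assay was Visium, in which mRNA from a tissue section is captured on an array of barcoded spots and counted as unique molecular identifiers (UMIs). Each spot under tissue with at least 200 UMIs received a neuron score, the summed UMIs of STMN2, TUBB3 and PRPH per 10000 UMIs, and a myelin score, the same for PRX, PMP2 and MAL. Neuron-score spots (class A) had a neuron score above 0 and at or above the 90th percentile of their section, and myelin-score spots (class B) met the same rule for the myelin score. The spots were thus selected on their measured levels of these 6 genes. The rule took 645 spots, 324 neuron-score and 321 myelin-score, out of 3319 scored spots in the 2 sections and 22233 in the 19 sections of the series that have a spot matrix. Another 9 spots met both rules and were dropped, and 2665 scored spots belonged to neither class.

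The series is a set of 20 sections of non-human primate dorsal root ganglia. The ganglia were fresh frozen, bought from a primate supplier, cut at 10 µm and stained with haematoxylin and eosin, and no treatment, genotype or age is given. Both sections compared here are labelled batch 2, with the sex given as NA. They share 1 title code, so they may come from 1 animal. P-values between the classes rest on a spread pooled over genes, not on the spread of animals. The 15 Macaca fascicularis sections set beside them came from 4 title codes.

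The species label of these 2 sections is crossed with their gene models. Their features carry ENSMMUG identifiers, Ensembl's prefix for Macaca mulatta, and the submitters' processing notes name the rhesus build Mmul_10. The 2 sections labelled Macaca mulatta carry ENSPANG identifiers, the baboon prefix. Which of label and gene models names the animal cannot be told apart from these labels, so the sections are called by their label throughout.

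A dorsal root ganglion holds the cell bodies of sensory neurons, each wrapped by satellite glia, beside bundles of their axons. Schwann cells ensheathe some of these axons with myelin. STMN2 (stathmin 2), TUBB3 (class III beta-tubulin) and PRPH (peripherin) are cytoskeletal genes of peripheral neurons, whereas PRX (periaxin), PMP2 and MAL encode proteins of compact myelin and of the Schwann cell membrane. Nerve bundles also contain fibroblasts and are enclosed by a perineurium. Several cells of more than 1 type can lie over a single spot, so the classes are regions and not cell types, and fewer cells of a type cannot be told apart from less RNA per cell.

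Section 1 stood apart from section 2 in depth. It held 595020 UMIs under tissue against 12595205, and 25.9% of its tissue spots reached 200 UMIs against 95.8%. Section 1 supplied 72 neuron-score and 69 myelin-score spots from 787 scored spots, and section 2 supplied 252 of each from 2532. The summed neuron-score and myelin-score spots held 29323 and 37336 UMIs in section 1, and 3000702 and 134445 UMIs in section 2. The median spot held 328 and 321 UMIs in the classes of section 1. In section 2 it held 11129 UMIs in neuron-score spots (range 231 to 34796) but 441 in myelin-score spots (range 200 to 2028), against 1933 in spots of neither class. The section 2 classes therefore differ in depth as well as in score, and levels are given per section below.

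The scores that chose the spots are given as a description. The neuron threshold was 151.0 per 10000 UMIs in section 1, where the nearest spots lay at 151.1 inside and 150.9 outside, and it was 121.51 in section 2, with the nearest spots at 121.52 and 121.48. The myelin threshold was 0 in section 1, where 90.3% of scored spots had no myelin UMI and the lowest spot inside had a score of 4.96. In section 2 it was 39.0, with spots at 39.01 inside and 38.8 outside, and 31.0% of scored spots had a myelin score of 0. At the median depth of the myelin-score spots, 1 UMI is worth 31.2 per 10000 in section 1 and 22.7 in section 2. Myelin-score spots of section 1 thus rest on very few myelin UMIs each, and their median neuron score of 64.3 was close to the 66.2 of spots in neither class.

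The 2 classes lay in different places in section 2 and were scattered in section 1. Position was not used by the rule. In section 2, 45.6% of the scored spots next to a myelin-score spot were also myelin-score spots, against a class share of 9.95% of scored spots, and 20.5% of the neighbours of neuron-score spots were neuron-score spots, against the same 9.95%. These shares are 4.59 and 2.06 times the class share. In section 1 the corresponding ratios were 1.37 for myelin-score spots and 0.845 for neuron-score spots. The largest connected patch of myelin-score spots in section 2 had 102 spots, 40.5% of the class, and that of neuron-score spots had 29, whereas no patch in section 1 exceeded 3 spots. Each section held 2 large pieces of tissue, and the 102-spot patch lay wholly in the upper piece of section 2.

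**Figure D1:**
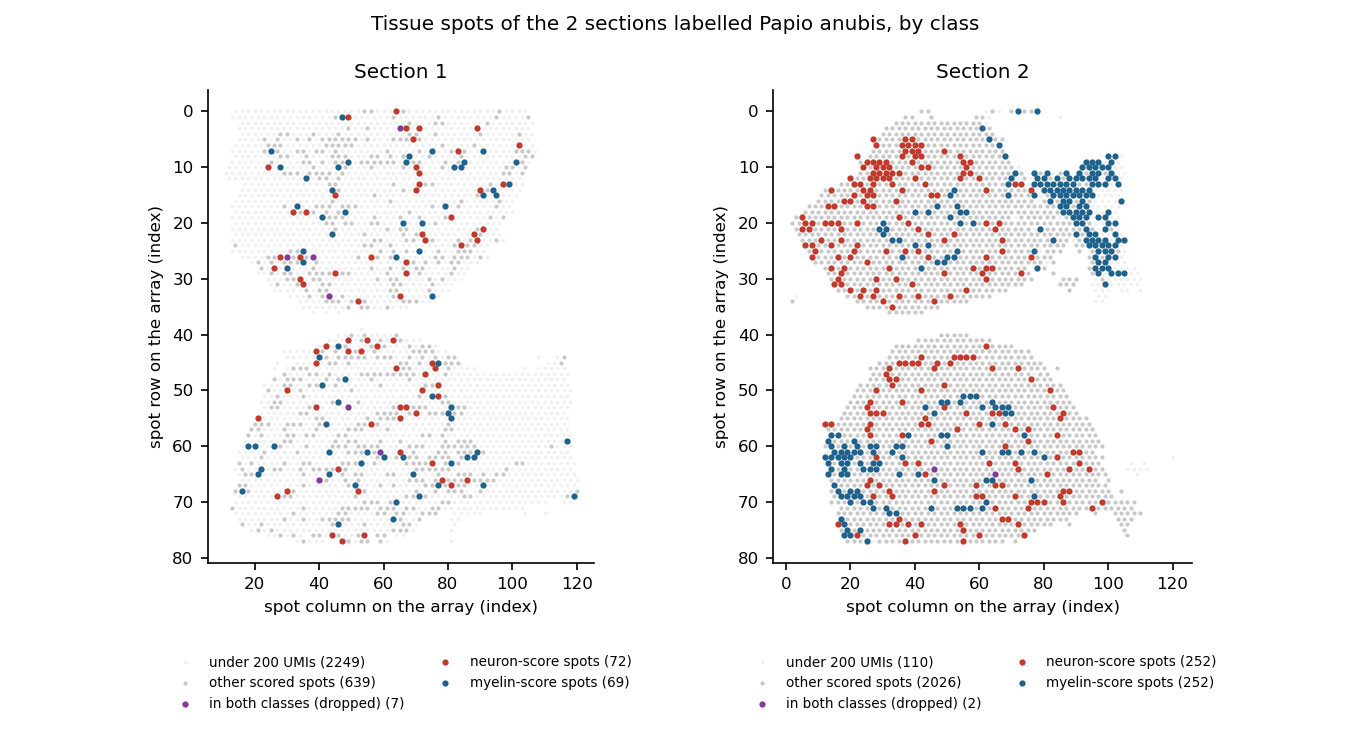
Tissue spots of the 2 sections labelled Papio anubis at their row and column on the array, with neuron-score spots in red, myelin-score spots in blue, spots meeting both rules in purple and the remaining spots in grey. Of the 252 myelin-score spots of section 2, 102 form 1 patch in the upper piece and 45 have no neighbour of their class. The 69 of section 1 are scattered among spots with under 200 UMIs.

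The patch of 102 myelin-score spots differed in level from the other 150 myelin-score spots of section 2. It also differed in the scores, with a median myelin score of 90.8 against 57.8 outside and a median neuron score of 22.0 against 38.8. The part of the scores in the levels was not tested. Levels here and below are counts per total UMIs of the summed spots, scaled as CPM. PMP22, a compact myelin protein, stood at 10341 CPM in the patch and 5918 outside it, and MBP, myelin basic protein, at 4954 and 3241. The calcitonin gene-related peptide gene CALCB was at 27.1 CPM in the patch and 564 outside. The patch summed to 36942 UMIs, so the CALCB level in it rests on very few UMIs. The summed fibroblast list ran the other way, at 16675 and 27825 CPM, while DCN (decorin, a small proteoglycan of fibroblasts) was at 1760 and 1713. The median spot held 338.5 UMIs in the patch and 577 outside, and these levels have no replicate check.

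The label of the classes was checked with each score gene left out of its own score in turn, so that the gene did not choose the spots it was read in. In section 2 the neuron genes were higher in neuron-score spots, STMN2 by 3.38-fold (95% counting interval 2.93 to 3.93), TUBB3 by 3.00-fold (2.61 to 3.47) and PRPH by 2.67-fold (2.25 to 3.19). The myelin genes of section 2 were higher in myelin-score spots, PRX by 58.8-fold (33.0 to 109.6), MAL by 27.8-fold (18.9 to 41.2) and PMP2 by 13.9-fold (12.1 to 15.9). In section 1 the neuron genes were at 1.02-fold (0.756 to 1.37) for STMN2, 1.07-fold (0.826 to 1.40) for TUBB3 and 1.03-fold (0.784 to 1.35) for PRPH. PMP2 was at 3.72-fold in myelin-score spots of section 1 (1.03 to 12.9), on 6 UMIs against 7 from a larger total in neuron-score spots. Without PMP2 in the score only 17 myelin-score spots remained in section 1. PRX and MAL had 2 and 4 UMIs in myelin-score spots of section 1 against 0 in neuron-score spots. The class names thus matched the held-out genes in section 2, while in section 1 the intervals of the 3 held-out neuron genes included 1. With the percentile raised to 95, held-out STMN2 in section 1 was at 2.13-fold (1.20 to 3.97), on 56 and 16 UMIs. All intervals are exact binomial intervals and cover counting error only.

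**Figure D2:**
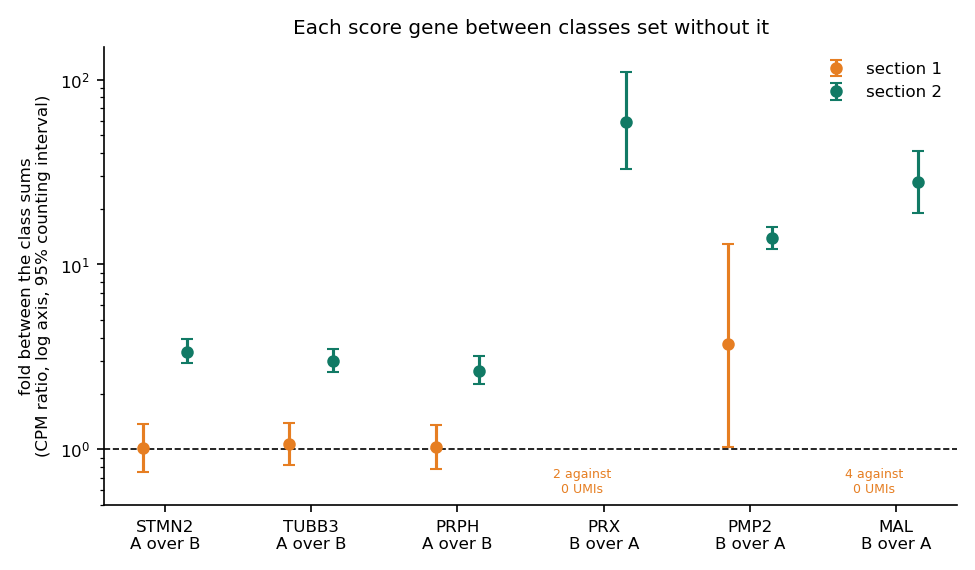
Fold between the class sums for each score gene when the classes were set without it, on a log axis, with 95% counting intervals, for section 1 (orange) and section 2 (green). Neuron genes are drawn as neuron-score over myelin-score spots and myelin genes the other way round. In section 1 the 3 neuron genes lie at 1.02 to 1.07, and in section 2 at 2.67 to 3.38.

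The authors' deposited table of spatial scores, which gives Moran's I (the tendency of neighbouring spots to share a level) for each gene and section, differed between the sections in the same way. In the authors' deposited table, 398 of 12029 genes (3.31%) had an adjusted p under 0.05 in section 1 and 3489 of 15449 (22.6%) in section 2. The 3 neuron score genes had a median I of 0.0628 in section 1 and 0.347 in section 2 in the authors' deposited table, and the 3 myelin score genes 0.0386 and 0.0798. For MBP the authors' deposited table gave 0.0827 and 0.321, and for CALCB 0.0574 and 0.413.

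Genes other than the 6 score genes were tested between the classes with edgeR on the summed counts, with the section as a block. Of 1589 genes tested, 47 (2.96%) passed an adjusted p of 0.05, all 47 lower in neuron-score spots, and 0 were higher in them. At an unadjusted p under 0.05 edgeR counted 126 lower and 34 higher. Of the cell type lists, the called genes held 3 of the 4 tested myelinating Schwann cell genes, 5 of the 6 fibroblast genes and 1 of 1 perineurium gene, and 0 of the 12 neuron genes. DESeq2 called 12 genes and limma-voom 160, of which 13 were higher in neuron-score spots, and the 47 were all among the 160. In the direction of the fold, 41 of the 47 were lower in neuron-score spots in both sections and 47 in section 2. The section 1 neuron-score sum held under 10 UMIs for 44 of the 47, so the calls rest mainly on section 2. With 2 sections the fit has 1 residual degree of freedom and shares 1 trend of dispersion across genes, and an exact paired test of any single value could not go below p = 0.5. The prior degrees of freedom were infinite, so a gene's own disagreement between the sections had no weight in its edgeR p-value. The 9 genes called by edgeR, DESeq2, limma-voom and edgeR without TMM scaling included MBP, CRYAB, IGF2, CAVIN1, IGFBP6, PTGDS, TAX1BP3 and the unnamed ENSMMUG00000062077.

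**Figure D3:**
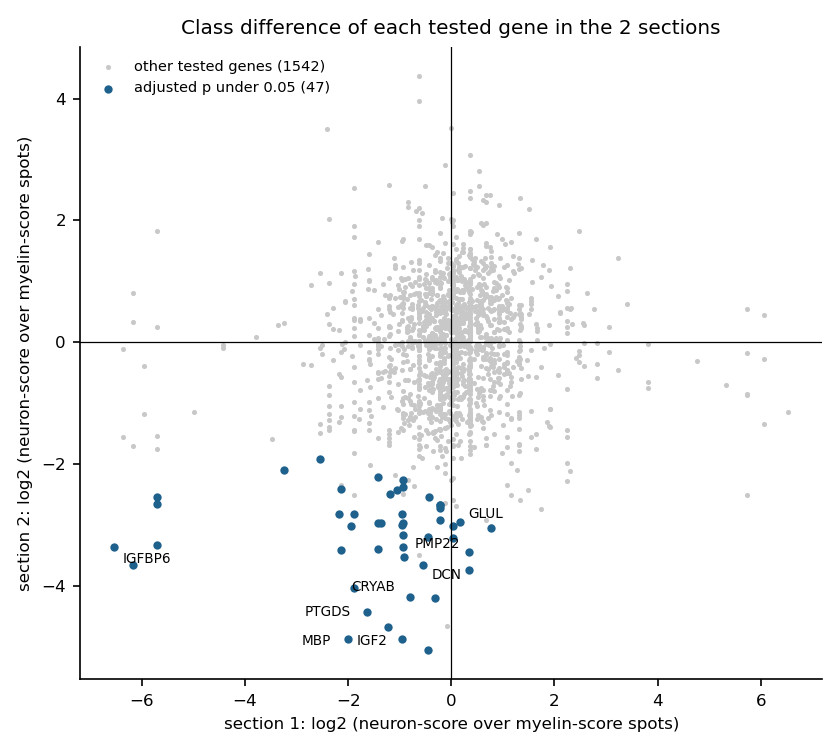
Log2 ratio of neuron-score over myelin-score spots for each of the 1589 tested genes, section 1 on the x axis and section 2 on the y axis, with the 47 genes of adjusted p under 0.05 (edgeR) in blue. All 47 lie below 0 in section 2, and 41 of them also lie below 0 in section 1.

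Myelin genes outside the score were higher in the myelin-score spots. MBP stood at 136 CPM in neuron-score and 562 in myelin-score spots of section 1, and at 184 and 3712 in section 2. Its intervals excluded equality in both sections, at 4.12-fold (1.39 to 16.5) and 20.2-fold (17.8 to 22.8), and the fitted log2 difference was -4.17 ± 0.73 (SE; edgeR, adjusted p = 7.4e-06). PMP22 was at 648 and 1232 CPM in section 1 and at 910 and 7133 in section 2, a log2 difference of -2.39 (edgeR, adjusted p = 0.023). For both genes the myelin-score spots were the higher class in both sections, and the neuron-score level differed less between the sections than the myelin-score level did.

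Of the 16 genes on the myelinating Schwann cell list, 4 had enough counts to be tested and 3 of them were called lower in neuron-score spots, with a median log2 difference of -2.82 against 0.01 over all genes tested. Among the members too low to test, the claudin CLDN19 had 6 UMIs in neuron-score and 14 in myelin-score spots of section 2, and DRP2, a partner of periaxin at the Schwann cell membrane, had 19 and 14 UMIs from a much smaller total in the myelin-score spots. NCMAP had 0 UMIs in every class. Summed over the list, the level was 1807 and 3053 CPM in section 1, a 1.69-fold excess in myelin-score spots (1.21 to 2.39), and 2233 and 21250 CPM in section 2, 9.52-fold (9.11 to 9.94). The ratio was above 1 in each tissue piece, at 1.99-fold and 1.55-fold in the pieces of section 1 and at 11.3-fold and 7.88-fold in those of section 2. No counting interval was computed for the pieces, and the whole list held 53 and 114 UMIs in section 1.

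Fibroblast and matrix genes were also higher in the myelin-score spots, with 5 of 6 tested members of the fibroblast list called and a median log2 difference of -2.48. With DESeq2, and with library totals in place of TMM, 0 of the 6 were called, at medians of -2.27 and -2.02, and the 1 perineurium gene was not called either. DCN was at 273 CPM in neuron-score and 402 in myelin-score spots of section 1, and at 199 and 1726 in section 2 (log2 difference -2.68; edgeR, adjusted p = 0.0015). COL1A2, a chain of type I collagen, was at 68.2 and 134 CPM in section 1 and at 109 and 677 in section 2 (log2 difference -2.87; edgeR, adjusted p = 8.1e-04). The proteoglycan LUM (lumican), MGP (matrix Gla protein) and GSN (gelsolin, an actin-severing protein) were the other called members. In section 1 the counting intervals of all 5 called members included 1. The section 1 sums held 8 and 15 UMIs of DCN and 2 and 5 of COL1A2. GSN was at 409 and 402 CPM in section 1, a myelin-score over neuron-score ratio of 0.982 (0.429 to 2.30). APOD, a lipid-binding apolipoprotein, supplied most UMIs of the list, at 2353 and 3643 CPM in section 1 and at 2471 and 19034 in section 2. Its log2 difference of -2.11 missed the threshold (edgeR, adjusted p = 0.14). The summed list was at 3206 and 5062 CPM in section 1, 1.58-fold higher in myelin-score spots (1.23 to 2.04), and at 3327 and 24761 in section 2, 7.44-fold higher (7.15 to 7.74).

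Most of the 12 largest differences among the named genes lay outside these lists. IGF2, the fetal growth factor, was at 136 and 268 CPM in section 1 and at 71.3 and 1473 in section 2, a log2 difference of -4.11 ± 0.69 (edgeR, adjusted p = 5.3e-06). IGFBP6, a binding protein with preference for IGF2, had 0 UMIs in the section 1 neuron-score spots and 241 CPM in the myelin-score spots, at least 2.36-fold higher against a floor of 3 UMIs. In section 2 it was at 131 and 930 CPM, and the fitted log2 difference was -3.51 (edgeR, adjusted p = 7.4e-06). PTGDS, the prostaglandin D synthase, was at 239 and 750 CPM in section 1 and at 189 and 2804 in section 2 (log2 difference -3.53; edgeR, adjusted p = 2.3e-05). CRYAB, the small heat shock protein alpha-B-crystallin, was at 273 and 482 CPM in section 1 and at 170 and 2127 in section 2 (log2 difference -3.10; edgeR, adjusted p = 2.4e-04). CAVIN1, a coat protein of caveolae, had a log2 difference of -3.91, and SFRP4, a secreted Wnt antagonist, one of -3.53. TAX1BP3, ANGPTL7 and the membrane peptidase MME differed by -3.82, -3.34 and -3.05. PTGDS and MBP were higher in myelin-score spots beyond counting error in both sections, whereas the section 1 intervals of IGF2 (0.566 to 8.58) and CRYAB (0.731 to 4.70) included 1.

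Single members of other lists were called in the same direction. They were ITGB4, an integrin of the perineurium and Schwann cells (log2 difference -2.74), and GLUL, the glutamine synthetase of satellite glia (-2.11). The kinesin heavy chain KIF5B and the mitochondrial ND4L differed by -2.03 and -2.29. ND4L overlaps ND4 in the mitochondrial genome, so its reads are uncertain. GLUL was at 239 and 214 CPM in section 1, with a myelin-score over neuron-score ratio of 0.898 (0.284 to 2.91), and at 187 and 997 in section 2, so its direction came from section 2 alone. The satellite glia list had 1 of 5 tested members called, and its median log2 difference of -0.27 turned to 0.08 when libraries were scaled by their totals in place of TMM. Its summed level was 7707 and 7205 CPM in section 1 and 5344 and 8539 in section 2.

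No gene of the neuron list was called. Of its 12 tested members 11 were higher in neuron-score spots, with a median log2 difference of 0.48. NEFL, the neurofilament light chain, was at 13300 CPM in neuron-score and 11544 in myelin-score spots of section 1, and at 14941 and 3659 in section 2. That is 1.15-fold (1.00 to 1.32) and 4.08-fold (3.74 to 4.47), and the fitted log2 difference of 0.85 was not called (edgeR, adjusted p = 0.74). NEFH, the heavy chain, was at 8355 and 7553 CPM in section 1 and at 8822 and 2246 in section 2. SNAP25, a protein of synaptic vesicle fusion, was at 1432 and 1232 CPM in section 1 and at 1734 and 424 in section 2. In each of these genes the myelin-score spots of section 2 were low and the other 3 sums lay closer together. The summed neuron list was 1.14-fold higher in neuron-score spots of section 1 (1.05 to 1.23), at 38229 against 33640 CPM, and 3.25-fold higher in section 2 (3.10 to 3.40), at 45321 against 13961.

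The neuropeptide and granin list had the same shape, with 0 of 5 tested members called and 5 of 5 higher in neuron-score spots. CALCB was at 2080 and 2036 CPM in section 1 and at 1876 and 417 in section 2, a ratio of 4.50-fold there (3.46 to 5.97). PCSK1N, an inhibitor of prohormone processing, was at 716 and 723 CPM in section 1 and at 719 and 119 in section 2 (log2 difference 1.07; edgeR, adjusted p = 0.45). Under other class rules edgeR called CALCB higher at the 95th percentile (adjusted p = 0.023), and PCSK1N where the other score was at or below the median (adjusted p = 0.015). TAC1, the substance P precursor, was at 682 and 670 CPM in section 1 and at 829 and 298 in section 2. The list summed to 4331 and 4125 CPM in section 1 and to 4331 and 1413 in section 2. Section 1 thus showed no difference beyond counting error in any of these 3 genes, and section 2 did in each of them.

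Nuclear genes of oxidative phosphorylation were higher in the neuron-score spots of section 2 as a sum. None of 35 tested members was called, 29 had a positive log2 difference and the median was 0.30. COX5A, a subunit of cytochrome c oxidase, was at 648 and 643 CPM in section 1 and at 652 and 112 in section 2 (log2 difference 1.07; edgeR, adjusted p = 0.45), and edgeR called it with scores from thinned spots (adjusted p = 0.041). The list summed to 32568 and 31203 CPM in section 1, 1.04-fold, and to 23916 and 11603 in section 2, 2.06-fold higher in neuron-score spots. The genes encoded by the mitochondrial genome were higher in myelin-score spots as a sum, at 56850 and 65326 CPM in section 1 and 118260 and 130217 in section 2. The synaptic vesicle list summed to 5388 and 5330 CPM in section 1 and 6104 and 2819 in section 2. The axonal transport motors had 1 of 13 called (KIF5B) and summed to 7162 and 6616 CPM in section 1 and 6855 and 4991 in section 2.

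Markers of other cell types moved with the classes as follows. The perineurium list summed to 68.2 and 348 CPM in section 1 and to 108 and 565 in section 2, and the smooth muscle and pericyte list to 0 and 107 and to 59.0 and 536. The adipocyte list summed to 546 and 911 CPM in section 1 and to 918 and 3109 in section 2, with 0 UMIs in every class for the defining genes ADIPOQ, PLIN1 and FABP4. Its 1 tested member was LPL, the lipoprotein lipase (log2 difference -1.69; edgeR, adjusted p = 0.12). The macrophage list was at 1125 and 1152 CPM in section 1 and at 1490 and 2194 in section 2, with 0 of 3 tested members called, and the endothelium list at 273 and 241 and at 169 and 216. The endothelium intervals included 1 in both sections, at 0.303 to 2.63 and 0.848 to 1.86 for myelin-score over neuron-score spots. Granulocyte, red blood cell and skeletal muscle lists were at 0 in section 1 and at no more than 7.44 CPM in either class of section 2. The part of these cells in the differences was not tested.

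**Figure D4:**
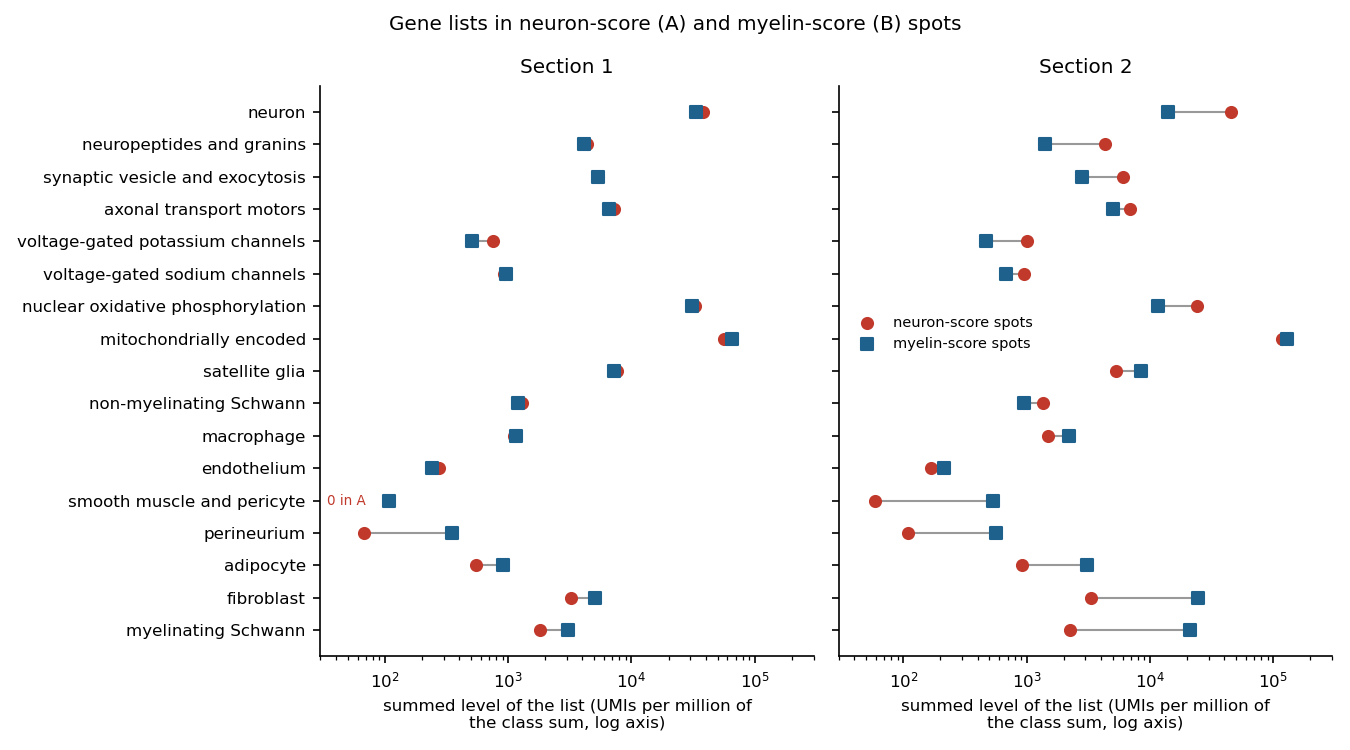
Summed level of each gene list in neuron-score spots (red circles) and myelin-score spots (blue squares), in CPM on a log axis, for section 1 (left) and section 2 (right), with no error bars. In section 2 the myelinating Schwann list lies at 2233 and 21250 CPM and the neuron list at 45321 and 13961, while in section 1 the paired points lie close together for most lists.

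Read alone, section 2 had many genes whose class difference exceeded counting error. Of 13542 genes, the counting interval lay wholly above 1 for 1129 higher in neuron-score spots and for 1831 higher in myelin-score spots, and wholly above a 2-fold difference for 141 and 856. Section 1 had 79 and 58 of 7071 genes. These are intervals on reads of 1 section, with no replicate. Across the 1589 tested genes the section differences shared a sign for 855 (53.8%), and their Pearson correlation across genes was 0.129, a description over genes that share both sections' depths. By a rule added after the data were seen, the 12 genes of largest lower bound on the neuron side of section 2 included DNER, a Notch ligand of neurons, at 277 and 14.9 CPM (18.6-fold, 5.13 to 154). Another was NSG1, a neuronal endosomal protein, at 419 and 52.1 CPM (8.04-fold). The same rule on the myelin side included NEK1, a kinase, with 55 UMIs in myelin-score and 11 in neuron-score spots.

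The difference in depth between the classes of section 2 moved with these results. Among class spots with 200 to 1000 UMIs, a setting added after the data were seen, section 2 kept 15 neuron-score spots with 8479 UMIs and 233 myelin-score spots with 111026. There the myelinating Schwann list was 2.67-fold higher in myelin-score spots (2.11 to 3.43) in place of 9.52-fold, and the fibroblast list 1.40-fold (1.19 to 1.66) in place of 7.44-fold. The neuron list was at 0.530-fold (0.459 to 0.615). PMP22 stayed higher in myelin-score spots at 4.26-fold (2.57 to 7.64), and MBP was at 1.52-fold (0.994 to 2.46). DCN was at 0.866-fold (0.534 to 1.49) and IGF2 at 0.795-fold (0.483 to 1.40), with intervals that included 1. IGFBP6 was lower in myelin-score spots, at 0.399-fold (0.251 to 0.662), against its direction over all spots. In section 1 the same depth limit kept 68 neuron-score and 58 myelin-score spots. The myelinating Schwann list of section 1 was then at 2.11-fold (1.48 to 3.05), against 1.69-fold over all its class spots. Its fibroblast list was at 2.18-fold (1.68 to 2.84), against 1.58-fold, so these 2 ratios did not fall in section 1. Only 6 genes of 419 were called by edgeR at this depth, with PMP22, PTGDS, CRYAB, ND4L and ENSMMUG00000012140 lower in neuron-score spots and the gene PARP6 higher. The part of depth in the differences over all spots was not tested.

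**Figure D5:**
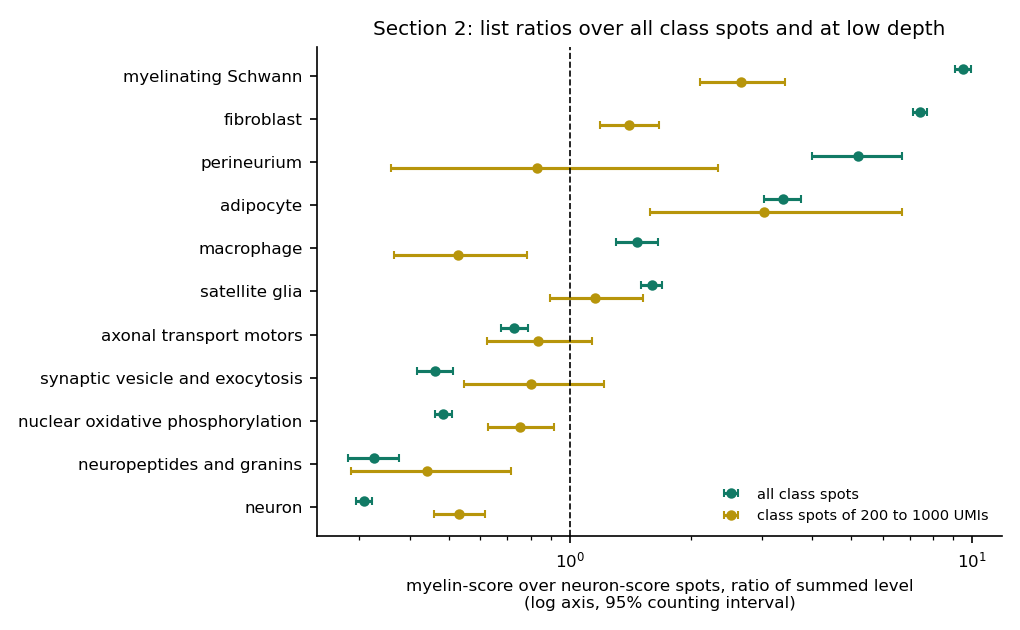
Ratio of the summed level in myelin-score over neuron-score spots of section 2 for each list, on a log axis with 95% counting intervals, over all class spots (green) and over class spots of 200 to 1000 UMIs (ochre). The myelinating Schwann ratio lies at 9.52 and 2.67, the fibroblast ratio at 7.44 and 1.40, and the macrophage ratio crosses from above 1 to 0.53.

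The same rule in the Macaca fascicularis sections gave class differences in the same direction for the called genes. Its classes also differed in depth, with 11866688 UMIs in 1809 neuron-score spots and 1079711 in 1811 myelin-score spots. Section medians ran from 418 to 14481 and from 253 to 1171 UMIs per spot. The part of depth in these differences was not tested. In Macaca fascicularis 5257 genes were tested over the 4 title codes, and edgeR called 1150 (21.9%) lower and 972 (18.5%) higher in neuron-score spots. Of the 47 genes called under the Papio label, 43 have a symbol and 35 were tested in Macaca fascicularis, where all 35 were called lower in neuron-score spots. The median log2 difference over these 35 genes was -2.65 under the Papio label and -2.64 in Macaca fascicularis. Of the 388 genes tested in both and called higher in neuron-score spots of Macaca fascicularis, 323 (83.2%) were higher in section 2 and 225 (58.0%) in section 1. Over all 1126 genes tested in both, the shares were 52.3% and 52.8%, so the share in section 1 lay near that of all genes. Of the 200 called lower there, 10 were higher in neuron-score spots of section 2 and 87 in section 1. Over the 1126 genes tested in both, the Pearson correlation across genes with Macaca fascicularis was 0.781 for section 2 and 0.108 for section 1.

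Whether the class difference itself differed between the label groups was tested as an interaction over title codes, with the lone Papio code assumed to vary like the other 4. The 2 Papio-label sections were summed, with 29323 and 3000702 UMIs in neuron-score spots of sections 1 and 2. Myelin-score spots had 37336 and 134445. Section 1 thus weighs more in the myelin-score sum, and level differences between the sections can enter this class difference. Of 7666 genes with a shared symbol, edgeR called 62 (0.809%), 12 with a difference shifted toward neuron-score spots under the Papio label and 50 toward myelin-score spots, and 722 had an unadjusted p under 0.05. Of the 35 genes called in the main comparison and tested here, 1 was among them, SPTBN1, a spectrin of the membrane skeleton. Its log2 difference was -2.92 under the Papio label and -0.44 in Macaca fascicularis. SPTBN1 had 4 UMIs in each class of section 1, where its log2 difference was 0.35, so its direction came from section 2 alone. Its level in neuron-score spots was 76.7 CPM under the Papio label and 883 ± 202 (SD, n = 4 title codes) in Macaca fascicularis. The interaction was not called for PMP22, whose difference was -2.39 and -2.64, nor for DCN, at -2.68 and -3.33. The count of 62 became 0 without section 2 (442 genes at an unadjusted p under 0.05) and 73 without section 1.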

How the data were processed

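The deposited spot matrices hold UMI counts per gene and barcode, made by the authors with Space Ranger 2.0.0, per the file headers. Mmul_10 is the build named in the submitters' processing notes. The tissue position tables, with an in-tissue mark and array row and column, are as deposited. A deposited table of spatial enrichment holds Moran's I, a score, and adjusted p-values that the authors computed per section. The members and gene lists were chosen with earlier results of these data known. Counts were summed per section and class and compared with edgeR 4.0.16 (quasi-likelihood, TMM, filterByExpr, section as a replicate block, Benjamini-Hochberg at 0.05). The 6 score genes stayed in library sizes and out of the tests. Both classes of a section come from the same section, which is where the pairing comes from. DESeq2 1.42.0 and limma 3.58.1 (voom), other percentiles, UMI minimums and thinned counts served as alternatives. The fit was also run on simulated counts with a dispersion of 0.05, below the fitted median of 0.091 for the Papio-label comparison. That run therefore cannot tell how the fit performs at the spread of these data. Named genes were the called genes with a symbol, a mean of at least 20 CPM and the same sign in both sections (the 12 of largest difference in each direction), plus up to 4 members of lowest p in each list, and 6 interaction genes in each direction. Genes read in section 2 alone were chosen by the added rule stated there. No doublet caller was run, since a spot can hold several cells. The sections share 2348 of the 4992 printed barcodes under tissue. The barcodes are positions on the array, and 29 were in a class in both sections. No Papio-label sequence table was given, so no sequence is printed. Some genes are not reported here.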

Additional observations from a re-analysis of the deposited data

Results flagged for a closer look

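For 12 genes edgeR's test of the interaction called a difference between neuron-score and myelin-score spots that was shifted under the Papio label against Macaca fascicularis. They were the 6 of largest shift in each direction, and a positive value means a shift toward neuron-score spots under the Papio label. The shift was 11.28 on the log2 scale for the protease gene KLK5, which had 1 and 50 UMIs in the neuron-score spots of Papio-label sections 1 and 2 and 0 in myelin-score spots, so its fitted size depends on the prior count. It was 4.00 for GIPC1, 3.89 for RAB11FIP2, 3.08 for WASL, 2.48 for the retinol dehydrogenase RDH5 and 2.22 for DNAJC25. The calls of GIPC1 and DNAJC25 were lost in 12 of 15 and 12 of 16 alternatives, with shifts down to 0.32 and 0.36. RAB11FIP2 lost its call in 6 of 15 and WASL in 7 of 16, and they rest on 11 and 13 UMIs and on 17 and 14 UMIs in the neuron-score and myelin-score spots of Macaca fascicularis. It was -6.29 for HNRNPUL2, -6.20 for the microtubule-associated protein MAP4, -6.08 for SH3PXD2A, -5.86 for CDC42BPB, -5.82 for the lipid phosphatase LPIN1 and -4.94 for the histone methyltransferase SETD2. Of the remaining genes, RDH5 lost its call in 2 of 16 alternatives, and SH3PXD2A, CDC42BPB and SETD2 lost theirs with the same sign in 6 of 15, 6 of 15 and 4 of 14. KLK5 and HNRNPUL2 lost theirs in 4 of 16 each, and MAP4 and LPIN1 with the same sign in 3 of 16 each. The smallest shifts were 2.87 for KLK5, -0.26 for HNRNPUL2 and -1.43 for MAP4. CDC42BPB, LPIN1 and SETD2 changed sign in 1 alternative each. Each of the 6 genes shifted toward myelin-score spots had between 1 and 5 UMIs in all Papio-label neuron-score spots. MAP4 had 5 there and 9 in myelin-score spots of section 2, against 3022 and 98 UMIs in Macaca fascicularis, whose neuron-score level was 358 ± 52.1 CPM (SD, n = 4 title codes) beside 2.61 under the Papio label. RDH5 ran the other way in level, at 576 CPM in Papio-label neuron-score spots and 22.5 ± 2.32 (SD, n = 4) in Macaca fascicularis. The 2 label groups were counted against different gene models, and the part of the gene models in these values was not tested. Nor was the part of batch, which differs among the Macaca fascicularis codes.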

How the results depend on the processing

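The 47 calls between the classes became 12 with DESeq2 and 160 with limma-voom, 0 with no filter on low counts (229 at an unadjusted p under 0.05 over 13583 genes) and 12 with library totals in place of TMM. Without the replicate block, so with the sections not paired, edgeR called 0 genes (88 at an unadjusted p under 0.05). Other class rules gave 131 calls at the 80th percentile, 72 at the 95th, 116 from scores of spots thinned to 200 UMIs, and 71 where the other score was at or below the median. Class spots of 200 to 1000 UMIs gave 6, and class sums thinned to equal totals 10. Genes higher in neuron-score spots numbered 8 at the 95th percentile, 6 with the other score at or below the median, 2 with thinned scores, and 1 each at a minimum of 500 UMIs (SH3GL2) and at 200 to 1000 UMIs. Leaving out a section leaves no residual degrees of freedom, so that test was not run. The 62 interaction calls became 31 with DESeq2, 132 with limma-voom, 22 at the 95th percentile, 22 and 14 at minimums of 500 and 1000 UMIs, and 27 from thinned scores. Leaving out 1 title code or section in turn gave 0 to 111, with 0 without Papio-label section 2. Held-out folds at the 80th and 95th percentiles in section 2 were 2.76 and 4.36 for STMN2, 2.22 and 3.96 for TUBB3, 2.07 and 3.804 for PRPH, and 3.38 and 29.3 for PMP2. STMN2 in section 1 was 2.13-fold at the 95th. Neighbour ratios at the 95th were 2.05 for myelin-score spots of section 1, and 2.52 and 7.55 for neuron-score and myelin-score spots of section 2, the last being 2.87 at the 80th. Signs turned for IGFBP6 (0.15 at 200 to 1000 UMIs), GLUL (-2.95 without section 1 and 0.16 without section 2), CDC42BPB (2.44 at a minimum of 1000 UMIs), LPIN1 (-6.13 without Papio-label section 1 and 0.70 without section 2) and SETD2 (-5.25 and 0.16). TMM moved the class difference of all genes by 0.55 on the log2 scale toward myelin-score spots in section 2 and by -0.01 in section 1. The causes were not tested.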

Other observations

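Ribosomal protein genes, the components of the translation machinery, had 1 of 47 tested members above 0 in the fitted log2 difference of neuron-score over myelin-score spots, with a median of -0.68 and 0 called by edgeR (3 at an unadjusted p under 0.05). In section 1, 20 of the 47 were above 0 and the median was -0.18, against 1 and -1.20 in section 2. Ion channel genes gave few tested members. The voltage-gated potassium channels summed to 750 and 509 CPM in neuron-score and myelin-score spots of section 1 and to 1001 and 469 in section 2, with 0 of 2 tested members called. The voltage-gated sodium channels summed to 921 and 964 CPM and to 952 and 677, with 0 of 3 called. No member of the sensory transduction channel list had enough counts to be tested, and SCN10A, the sodium channel of nociceptors, had 1 UMI in each section's myelin-score spots, 0 in the neuron-score spots of section 1 and 4 in those of section 2. Cholesterol synthesis genes, 0 of 10 called, had a median log2 difference of -0.05 that turned to 0.38 with library totals in place of TMM.

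In the main setting, where edgeR called 0 genes higher in neuron-score spots, limma-voom called 13 genes higher in these spots, 12 of them with a symbol. They included PCP4, a calmodulin-binding peptide of neurons (log2 difference 1.48; limma-voom, adjusted p = 0.026), PCSK1N (1.13; adjusted p = 0.032), COX5A (1.14; adjusted p = 0.036) and GNG3, a G protein subunit (0.95; adjusted p = 0.043). The difference between the tools' counts was not tested.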
